A study of Schizosaccharomyces pombe with 15 samples.

Results

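RNA sequencing libraries of fission yeast (Schizosaccharomyces pombe) were compared, 3 from cells taken 10 min after plasma irradiation at atmospheric pressure and 3 from unirradiated cells. Both groups were the wild-type strain JY450, grown in YE, a rich yeast extract medium, and neither carried a deletion or an added transgene by its labels. The protocol text, which all samples share, describes cells in the logarithmic or the stationary phase spread on a filter lying on YE agar before irradiation, but neither the growth phase of these libraries nor the plasma dose is stated there. The libraries were 6 of the 15 in the series, which also holds plasma at 15 and 30 min and hydrogen peroxide (H2O2), and all genes that passed an expression filter were described, 5214 of the 6998 listed. The control labels give no time, so irradiation and the minutes of handling that went with it cannot be told apart. The series text calls the 3 libraries of a group biological replicates.

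Atmospheric-pressure plasma is an ionised gas that brings reactive oxygen and nitrogen species to the cell surface. In fission yeast such stress activates the mitogen-activated kinase Sty1, which acts through the transcription factor Atf1, while the factor Pap1 enters the nucleus when its cysteines are oxidised and raises antioxidant and drug export genes. Growing yeast cells spend much of their transcription on ribosome assembly, which nutrient and stress signals lower.

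Library totals were 15457879 to 22012697 counts. Levels per gene are CPM, counts relative to the TMM-scaled total of their library, and changes are log2 fold changes ± SE from edgeR's quasi-likelihood test on all 15 libraries, with p-values adjusted over all genes by Benjamini-Hochberg. On the first principal component of the 6 libraries, which held 69.2% of the variance, the controls lay at -22.1 to -15 and the plasma libraries at 17 to 21.6. The second held 12% and spread the controls, with control library a at 1.05, b at 14.6 and c at -12.9, while the plasma libraries lay within -2.49 to 1.18. Control b was thus the control nearest to the plasma libraries on the first component, and every change below was computed again without it. Ribosomal RNA held 0.842, 0.762 and 0.189% of the counts in controls a, b and c and 0.123 to 0.244% in the plasma libraries, and its part in the changes of other genes was not tested. Defining genes of meiosis, whose cells could stand among growing cells, summed to 451 to 489 CPM in the controls and 423 to 430 CPM in the plasma libraries over 18 matched genes, of which 5 had no count in any of the 6 libraries. Of the 12 tested, 5 passed as lower and 2 as higher at an adjusted p under 0.05. The septin genes spn5 and spn7, both among these markers, rose from means of 27.0 to 44.8 CPM and of 1.82 to 2.65 CPM. In a bulk library, fewer cells of a type and less RNA per cell cannot be told apart.

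At 10 min after plasma, 2025 genes had changed, 38.8% of those tested, with 1141 higher (21.9%) and 884 lower (17%). The rises were larger than the falls. Of the higher genes 240 (4.60% of those tested) rose at least 2-fold and 25 at least 8-fold, against 35 lower genes (0.671%) past 2-fold and 1 past 8-fold. Of the lower genes 769 fell by under 1.5-fold. Across all genes tested the median log2 change was -0.003. Counts of list members given below are to be read beside the shares of 21.9% higher and 17% lower.

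**Figure D1:**
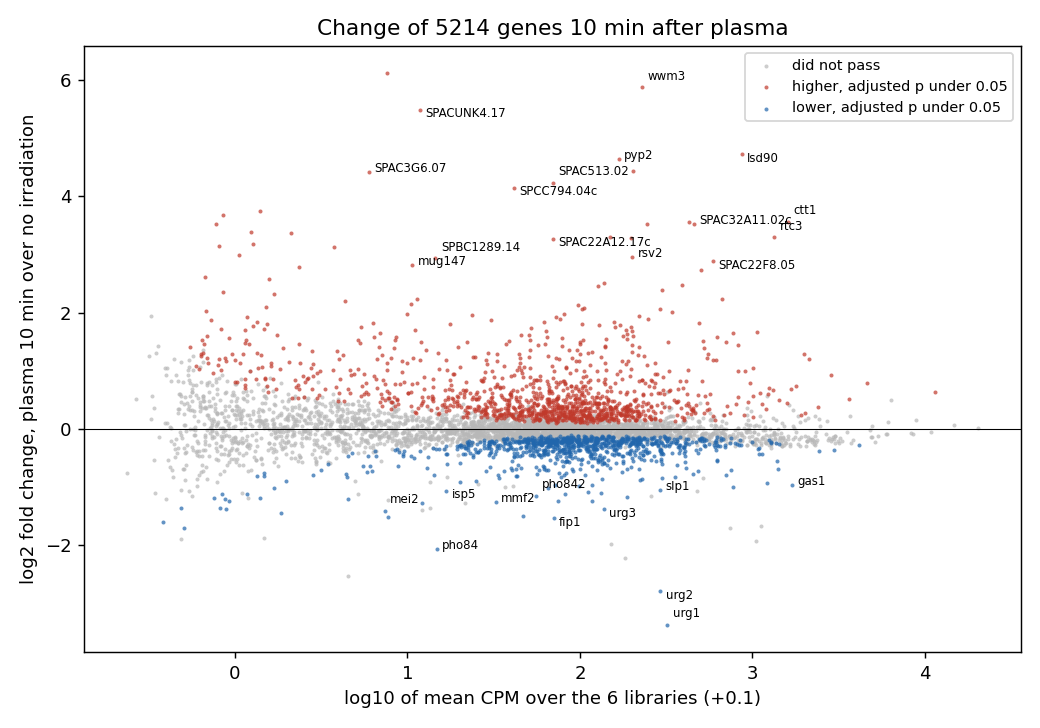
Log2 fold change of plasma 10 min over no irradiation (y axis) against the log10 of the mean CPM over the 6 libraries (x axis), with each of the 5214 genes as a point, red where higher and blue where lower at an adjusted p under 0.05. The large rises reach log2 changes above 5, while the falls stay within -3.36, the value of urg1.

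Among the 181 coding genes that rose at least 2-fold, 151 stood in none of the 9 lists of known stress genes, a share of 83.4%. Those lists held only 182 of the 4477 coding genes tested and are not complete. Genes outside them include oxr1, annotated for a response to oxidative stress, the glyoxylase gene hsp3104 and the annotated trehalose-phosphate synthase gene SPAC22F8.05. The share thus depends on how the lists were drawn, and does not count genes outside the stress response. Of the 182, 16.5% rose at least 2-fold, against 4.04% of all coding genes tested. The highest genes outside the stress lists, among those with enough counts, were of little-known function. SPAC513.02 (chrI:2911289-2912543), annotated as a phosphoglycerate mutase family enzyme, stood at 6.38, 10.1 and 4.21 CPM in controls a, b and c and at 123, 153 and 120 CPM in the plasma libraries. It rose 18.8-fold (log2 change 4.23 ± 0.25, adjusted p = 5.95e-09), and its groups lay far apart. The transporter gene SPCC794.04c (chrIII:248211-250194) went from 4.22, 4.89 and 4.02 CPM to 73.0, 89.3 and 71.6 CPM, a log2 change of 4.15 ± 0.25 (adjusted p = 6.5e-09). Its 3 controls lay within 1 CPM of each other, far below every plasma library.

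Among the uncharacterized genes, a pair reached high levels. SPAC32A11.02c (chrI:2447839-2450875) had 72.6, 78.1 and 69.3 CPM in the controls and 841, 889 and 799 CPM after plasma. Its rise was 11.5-fold (log2 change 3.52 ± 0.18, adjusted p = 1.75e-09) and came out at 3.52, 3.50 and 3.52 within the library letters a, b and c. SPAC637.03 (chrI:4542091-4543533) had 35.4, 51.5 and 30.5 CPM in the controls and 422, 515 and 422 CPM after plasma, a log2 change of 3.53 ± 0.18 (adjusted p = 1.75e-09). For both genes the lowest plasma library stood several-fold above the highest control.

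SPBC725.03 (chrII:1206967-1208271), annotated as a pyridoxamine 5'-phosphate oxidase, went from 24.3, 39.2 and 18.5 CPM to 261, 292 and 261 CPM (log2 change 3.31 ± 0.25, adjusted p = 9.37e-08). The gene smp4 (chrIII:955171-955906) had 28.8, 60.5 and 21.2 CPM in the controls and 346, 418 and 317 CPM after plasma (log2 change 3.28 ± 0.34, adjusted p = 2.02e-06). In both, control b was the highest control and still far below every plasma library, and without it the log2 changes were 3.65 and 3.83. SPAC22F8.05 (chrI:4791892-4795263), annotated as a trehalose-phosphate synthase, had 113, 221 and 88.8 CPM in the controls and 957, 1214 and 941 CPM after plasma (log2 change 2.88 ± 0.26, adjusted p = 5.61e-07). Control b again led the controls, at about 2-fold the level of the other two.

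A steep rise also came from genes near 0 without irradiation. SPAC3G6.07 (chrI:5392191-5392898), uncharacterized, had 0.551, 0.713 and 0.251 CPM in the controls and 9.61, 14.4 and 9.88 CPM after plasma, a log2 change of 4.41 ± 0.28 (adjusted p = 1.58e-08). SPACUNK4.17 (chrI:2872778-2874687), a putative dehydrogenase, had 0.276, 0.917 and 0.314 CPM and then 35.5, 21.9 and 11.2 CPM (log2 change 5.48 ± 0.58, adjusted p = 2.54e-06). The plasma libraries of the latter differed among themselves, and 80.2% of its span lies under a non-coding gene whose reads cannot be told from its own. The dehydrogenase gene SPAC22A12.17c (log2 change 3.26 ± 0.17), the adducin gene SPBC1289.14 (2.94 ± 0.16) and mug147 (2.81 ± 0.23) completed the 14 highest, and SPAC22A12.17c shares 47% and mug147 78.3% of its span with another gene.

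**Figure D2:**
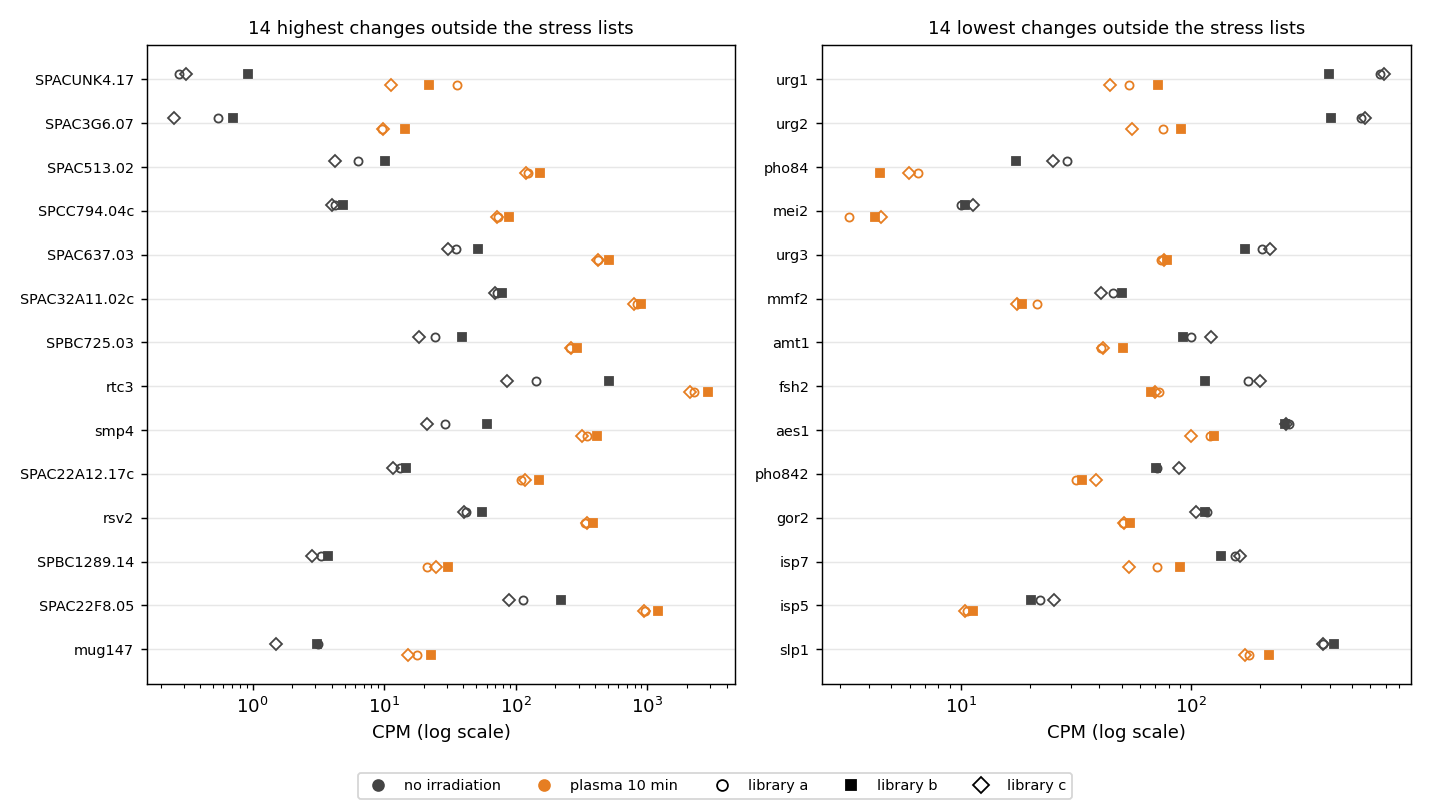
CPM on a log axis (x) of the 14 genes with the highest and the 14 with the lowest log2 change outside the stress lists (y), 1 mark for each library, grey without irradiation and orange 10 min after plasma. The groups of no gene shown overlap, since this was asked of genes to be named. Filled squares mark library b, which in rtc3 stands at 515 CPM against 86.1 to 142 CPM in the other controls.

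The genes that rose most shared features of annotation. No intron interrupts the coding sequence of 85.1% (154) of the 181 coding genes past 2-fold, against 52.4% of all coding genes tested and 48.3% of those that did not pass. For the 151 outside the stress lists the share was 84.1%, and for the 23 that fell at least 2-fold it was 91.3% (21 genes). The RefSeq 5' untranslated stretch of the 181 had a median of 167 bases, against 86 over all tested. For the 23 that fell at least 2-fold the median was longer still, at 215 bases. Products named only as uncharacterized made up 19.3% of the 181 and 6.43% of all tested, and dehydrogenases, reductases and oxidases 13.3% and 4.29%, with these product words chosen after the values were seen. These are counts of annotation, with no test, and neighbouring or duplicated genes are not independent.

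Upstream sequence differed between these groups of genes too, but not in the same way. The 300 bases before the RefSeq gene start (assembly ASM294v3) were searched on both strands for 7 motifs. The motif letters were chosen with results of these data known, so the shares are descriptions without a test. The core TGACGT, bound by Atf1-type factors, stood in 28.7% (52) of the windows of the 181 genes, against 6.03% of all 5112 coding windows, 11.3% for genes that rose by less than 2-fold, 3.86% for genes that did not pass and 2.21% for genes that fell by less than 2-fold. Outside the stress lists the share was 28.5% (43 of 151) and within them 30.0% (9 of 30). In the 23 genes that fell at least 2-fold TGACGT stood in 4.35% (1) of the windows. The letters GATAAG, read by GATA-type factors that act in nitrogen and iron regulation, stood in 34.8% (8) of the windows of the 23 genes that fell at least 2-fold, against 11.7% of all windows and 9.94% for the 181. The 23 are few, and some belong to iron and nitrogen lists.

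No other motif stood in as large a share of the risers' windows. The Pap1-type letters TTAGTAA stood in 9.94% of the windows of the 181 and in 12.7% of all windows, and CCCCT in 17.1% and 10.0%. In the 23 genes that fell at least 2-fold, TTAGTAA stood in 4.35% (1) of the windows and CCCCT in 26.1% (6). The heat shock element, searched as 3 GAA units in alternating orientation, stood in 1.10% of the windows of the 181 and in 0.489% of all, 2 and 25 windows. Of the ribosomal protein motifs, HomolD stood in 0.552% (1) of the windows of the 181 and in 2.62% of all, and HomolE in none of them and in 0.998% of all. A match is a run of letters and not a bound site, and no match says only that the letters are not in the window.

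The windows of 4 genes that rose and of 2 that fell are shown, to set the motif in its place. Each reads 5' to 3' towards its gene on the strand of the gene, from RefSeq ASM294v3, and stops before the transcript start of the deposited tables where that lies further upstream. Capitals mark TGACGT or its reverse complement in the first 4 and GATAAG or its reverse complement in the last pair.
wwm3 (chrII:201981-202256, plus strand): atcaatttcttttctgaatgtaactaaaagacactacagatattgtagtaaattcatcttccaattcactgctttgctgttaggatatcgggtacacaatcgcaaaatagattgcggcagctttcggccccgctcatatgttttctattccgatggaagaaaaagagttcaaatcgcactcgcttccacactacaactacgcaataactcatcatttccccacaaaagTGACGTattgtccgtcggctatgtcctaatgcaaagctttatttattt
SPAC32A11.02c (chrI:2451066-2451365, minus strand): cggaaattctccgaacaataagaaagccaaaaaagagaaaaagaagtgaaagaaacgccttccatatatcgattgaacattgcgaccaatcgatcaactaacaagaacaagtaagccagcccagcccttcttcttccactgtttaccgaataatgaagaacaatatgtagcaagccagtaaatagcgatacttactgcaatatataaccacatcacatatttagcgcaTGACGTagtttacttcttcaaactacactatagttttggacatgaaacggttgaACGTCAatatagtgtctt
smp4 (chrIII:954930-955170, plus strand): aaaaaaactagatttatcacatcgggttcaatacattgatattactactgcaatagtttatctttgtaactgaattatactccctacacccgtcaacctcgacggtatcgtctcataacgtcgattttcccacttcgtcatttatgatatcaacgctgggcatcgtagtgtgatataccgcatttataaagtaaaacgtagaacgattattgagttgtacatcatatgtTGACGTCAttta
cgs1 (chrI:3642729-3642971, plus strand): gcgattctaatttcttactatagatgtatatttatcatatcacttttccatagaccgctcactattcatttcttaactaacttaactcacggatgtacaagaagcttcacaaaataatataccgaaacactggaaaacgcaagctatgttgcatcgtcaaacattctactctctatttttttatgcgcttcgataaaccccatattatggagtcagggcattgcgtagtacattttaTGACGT
amt1 (chrIII:2068679-2068976, plus strand): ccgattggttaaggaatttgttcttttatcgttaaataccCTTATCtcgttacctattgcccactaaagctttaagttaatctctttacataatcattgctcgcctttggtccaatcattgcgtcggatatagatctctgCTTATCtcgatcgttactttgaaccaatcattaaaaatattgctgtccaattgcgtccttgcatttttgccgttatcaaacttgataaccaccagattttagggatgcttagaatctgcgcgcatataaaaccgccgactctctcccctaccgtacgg
isp7 (chrI:4183075-4183319, minus strand): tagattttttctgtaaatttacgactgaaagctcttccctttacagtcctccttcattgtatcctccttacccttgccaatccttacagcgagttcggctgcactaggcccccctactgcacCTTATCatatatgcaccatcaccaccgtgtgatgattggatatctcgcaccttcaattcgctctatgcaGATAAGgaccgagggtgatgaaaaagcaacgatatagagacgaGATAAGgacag

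The gene wwm3, whose window holds 1 match 48 bases before its end, had 8.54, 9.07 and 5.09 CPM in the controls and 446, 474 and 426 CPM after plasma, the steepest rise among the named genes (log2 change 5.87 ± 0.27, adjusted p = 1.21e-09). The smp4 window holds 2 overlapping matches, 1 on each strand, and that of SPAC32A11.02c 2 apart. The window of SPAC32A11.02c lies within the listed non-coding gene SPNCRNA.828 (chrI:2450314-2451737), which also rose (log2 change 1.98 ± 0.24). The deposited transcript of SPAC32A11.02c starts at 2450875, so its window does not adjoin that start. The matches of smp4 lie within 12 bases of the start of its deposited transcript. Of the 175 named genes 32 have a window with TGACGT, 29 of the 103 that rose and 3 of the 69 that fell, the latter being pho84, adh4 and mde10. The windows of rsv2 and srk1 hold 3 matches each, and those of SPAC513.02, SPCC794.04c, SPAC637.03 and rtc3 hold none.

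**Figure D3:**
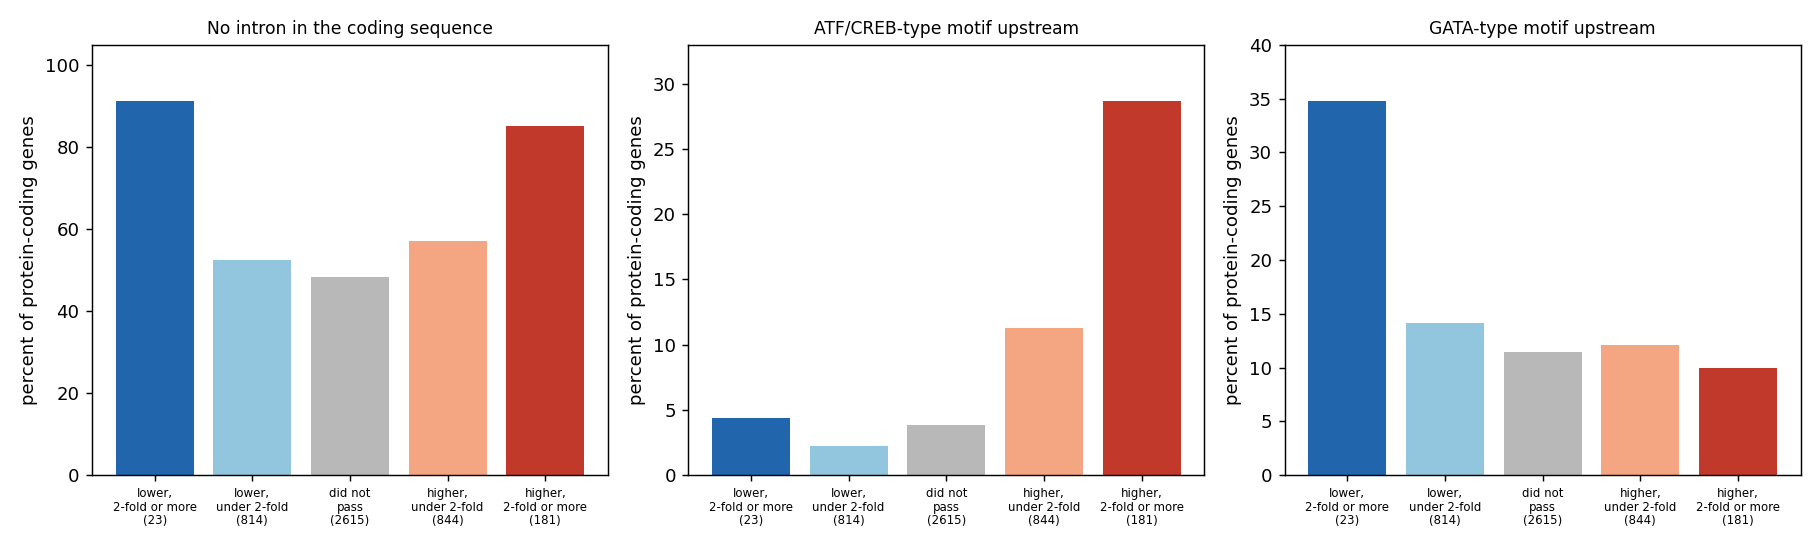
Percent of protein-coding genes (y axes) with no intron in the coding sequence, with TGACGT upstream and with GATAAG upstream, for 5 groups by change at 10 min (x axes, number of genes in brackets). The TGACGT share is 4.35% in genes lower by 2-fold or more. From 2.21% in genes lower by less than 2-fold it climbs to 28.7% in genes higher by 2-fold or more. The GATAAG share is highest, at 34.8%, in the 23 genes lower by 2-fold or more. Both motifs were chosen with results known.

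The genes of both subunits of protein kinase A rose. Protein kinase A is held inactive by its regulatory subunit Cgs1 until cyclic AMP, made when glucose is plentiful, binds and frees the catalytic subunit Pka1. The catalytic subunit gene pka1 (chrII:396752-398957) had 97.0, 112 and 96.4 CPM in the controls and 286, 344 and 291 CPM after plasma (log2 change 1.59 ± 0.10, adjusted p = 1.37e-08). For the regulatory subunit gene cgs1 (chrI:3642972-3645636) the values were 12.7, 16.5 and 9.74 CPM and 44.8, 54.7 and 44.7 CPM (log2 change 1.87 ± 0.16, adjusted p = 2.03e-07). Neither gene had overlapping groups, a condition set for most named genes, and both changes stood without control b, at 1.66 and 2.07. Of 63 tested kinase genes outside the stress lists 25 were higher and 10 lower, with a median log2 change of 0.10. The kinase gene ppk15 went from 139 ± 6.12 to 332 ± 26.2 CPM (SD, n = 3). The calcium and calmodulin kinase gene cmk1 went from 39.7 ± 1.73 to 71.4 ± 2.49 CPM (adjusted p = 2.39e-09), and byr2, the pheromone pathway kinase, from 38.9 ± 0.781 to 67.4 ± 4.10 CPM.

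Calcium genes changed in 1 direction alone, with 11 of 21 higher and none lower. The vacuolar calcium pump gene pmc1 had 42.9, 46.2 and 57.6 CPM in the controls and 117, 136 and 122 CPM after plasma (log2 change 1.36 ± 0.14, adjusted p = 1.75e-06). The gene of the calcineurin-responsive factor prz1 went from 112 ± 17 to 175 ± 1.56 CPM (SD, n = 3). The gene of the calcineurin catalytic subunit, ppb1, rose by only 0.15 on the log2 scale. The count was 7 without plasma library b, and 7 in a fit to the 6 libraries alone.

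Transcription factor genes outside the stress lists split, with 21 of 57 higher and 10 lower. The zinc finger gene rsv2 (chrII:3530760-3535288) rose most, from 41.8, 55.8 and 40.3 CPM to 335, 385 and 348 CPM (log2 change 2.95 ± 0.18, adjusted p = 1.22e-08), and 37.2% of its span is shared with another gene. The CSL-family gene cbf12, known for raising cell adhesion, had 41.8, 27.8 and 59.4 CPM in the controls and 116, 111 and 118 CPM after plasma (log2 change 1.43 ± 0.17). Its controls differed more among themselves than its plasma libraries did. The flocculin repressor gene gsf1 went from 54.3 ± 4.10 to 113 ± 6.80 CPM (adjusted p = 1.12e-07). Of the MBF factor that drives G1 to S genes, the subunit gene res2 rose from 40.6 ± 1.55 to 76.6 ± 8.57 CPM and the activator gene rep1 from 6.18 ± 0.840 to 13.6 ± 0.407 CPM. Of 56 replication and G1/S genes, which include MBF targets, 6 were higher and 19 lower. The helicase subunit gene mcm6 fell by 0.47 and the kinase subunit gene dfp1 by 0.44 on the log2 scale. Without control b the factors came to 15 higher and 16 lower.

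Transport at the cell surface changed gene by gene. The hexose transporter gene ght2 (chrII:3427180-3429424) had 208, 286 and 201 CPM in the controls and 1094, 1180 and 1010 CPM after plasma (log2 change 2.24 ± 0.15, adjusted p = 2.19e-08). The gene of the high-affinity glucose transporter ght5 fell from 74.1 ± 13.1 to 54.5 ± 12.8 CPM (SD, n = 3, log2 change -0.44 ± 0.14, adjusted p = 0.0192), with libraries that overlap, and ght8 fell by 0.35 ± 0.09. Per kilobase of counted transcript, ght2 stood at 103 CPM before and 488 CPM after plasma, and ght8 at 286 and 225 CPM. By this measure ght2 lay below ght8 without irradiation and above it at 10 min. Of the 7 hexose transporter genes tested, ght1 and ght4 rose by 0.76 and 0.66 on the log2 scale, the latter with a non-coding gene over 57.8% of its span.

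Drug export genes rose together in count, 10 of 14 with none lower and a median log2 change of 0.50. The ABC transporter gene bfr1, named for brefeldin A resistance, had 297, 296 and 388 CPM in the controls and 731, 824 and 735 CPM after plasma (log2 change 1.22 ± 0.13, adjusted p = 2.13e-06). A further ABC transporter gene, pdr1, went from 94.1 ± 4.67 to 190 ± 6.99 CPM, and the facilitator-type genes mfs1 and caf5 rose by 1.20 ± 0.09 and 1.36 ± 0.14. Control b was the lowest control for bfr1, and no plasma library of either gene came near the controls. The sulfate permease gene sul1 rose from 156 ± 20.2 to 334 ± 26.6 CPM (adjusted p = 1.28e-07). The sulfite reductase subunit gene met10, with a non-coding gene over 58.6% of its span, and the homocysteine synthase gene met17 fell by 0.71 ± 0.13 and 0.87 ± 0.18 on the log2 scale.

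Lipid synthesis genes were higher in 8 and lower in 13 of 53 cases, and secretion genes higher in 14 and lower in 7 of 84, beside 21.9% higher over all genes. The sterol acyltransferase gene are1, whose enzyme makes sterol esters, had 50.3, 53.3 and 52.7 CPM in the controls and 146, 156 and 139 CPM after plasma (log2 change 1.5 ± 0.09, adjusted p = 6.4e-09). Its paralogue are2 rose by 0.68 ± 0.06, and nem1, a phosphatase gene for the regulation of lipid synthesis, by 0.91 ± 0.10. Among secretion genes sec18, whose product takes apart membrane fusion complexes, rose from 295 ± 29.7 to 524 ± 36.6 CPM. The eisosome gene pil1, whose protein shapes furrows in the plasma membrane, rose from 1983 ± 121 to 3751 ± 451 CPM.

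The stress lists were chosen with their direction known, so their counts are no independent support. In the core stress list 31 of 42 rose and 1 fell, with a median log2 change of 0.82. The gene lsd90 had 37.4, 119 and 34.0 CPM in the controls and 1161, 2330 and 1520 CPM after plasma (log2 change 4.72 ± 0.44, adjusted p = 6.39e-07), and ish1, a nuclear envelope gene, 58.2, 87.1 and 56.4 CPM and 762, 887 and 723 CPM (3.56 ± 0.21). Library b was highest in both groups for both genes. The neutral trehalase gene ntp1 rose from 216 ± 91.6 to 767 ± 118 CPM, so the gene of an enzyme that breaks trehalose down rose beside the annotated synthase above. The glycerol-3-phosphate dehydrogenase gene gpd1 rose from 3360 ± 583 to 5832 ± 722 CPM, and zwf1, which supplies NADPH from glucose-6-phosphate, from 705 ± 16.5 to 1222 ± 139 CPM. The metallothionein gene zym1 rose by 1.47 ± 0.14 while the zinc importer gene zrt1 fell by 0.59 ± 0.12.

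Autophagy genes, which enclose and recycle cell contents, were higher in 22 of 30 cases and lower in none, with a median of 0.39. The vacuolar exporter gene atg22 had 21.4, 22.4 and 25.6 CPM in the controls and 49.2, 52.0 and 46.3 CPM after plasma (log2 change 1.09 ± 0.08, adjusted p = 4.26e-08). The kinase gene atg1, which starts the process, rose by 0.81 ± 0.09, and atg3, which acts in lipid conjugation of Atg8, by 0.67 ± 0.05. Control b was the lowest control for atg1 and the middle one for atg3. Ubiquitin ligase and F-box genes were higher in 20 of 59 cases and lower in 5, a share of risers above the 21.9% of all genes, and the deubiquitinase gene ubp15 rose from 299 ± 19.1 to 489 ± 42.5 CPM. DNA repair genes were higher in 14 of 54 cases and lower in 4, near the share of all genes for the rises. The gene of the ultraviolet damage endonuclease uve1 had 112, 109 and 113 CPM in the controls and 214, 221 and 211 CPM after plasma (log2 change 0.95 ± 0.07, adjusted p = 7.5e-08). Histone genes were higher in 4 of 9 cases, with hht3 at 671 ± 41.0 and 980 ± 138 CPM.

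Nitrogen genes were lower at 10 min. In the nitrogen starvation list, whose genes rise when ammonium runs out, 11 of 20 fell, 2 rose and the median was -0.40. The ammonium transporter gene amt1 (chrIII:2068977-2071707) had 100, 91.9 and 122 CPM in the controls and 40.8, 50.6 and 41.7 CPM after plasma (log2 change -1.24 ± 0.12, adjusted p = 8.16e-07). The oxygenase gene isp7 (chrI:4179961-4183074), which acts in amino acid uptake, had 155, 135 and 163 CPM and then 71.1, 89.3 and 54.0 CPM (-1.08 ± 0.13, adjusted p = 8.45e-06). The groups did not overlap in either gene, as the rule for naming asked, and the plasma libraries of isp7 differed by more than its controls. The 2 windows printed above for these genes hold 2 and 3 matches to GATAAG.

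Other nitrogen genes fell beside them. The amino acid transporter gene isp5 went from 22.6 ± 2.70 to 10.8 ± 0.460 CPM and the oligopeptide transporter gene isp4 from 232 ± 28.1 to 144 ± 26.4 CPM. The glutamine synthetase gene gln1 went from 455 ± 54.5 to 257 ± 35.6 CPM (adjusted p = 7.79e-06). The gene mei2, which switches cells to meiosis and is raised by starvation, had 10.1, 10.4 and 11.3 CPM in the controls and 3.27, 4.26 and 4.49 CPM after plasma (log2 change -1.40 ± 0.14, adjusted p = 1.75e-06). Of the list's risers, isp6 rose by 0.51 and ste11, the mating regulator gene, by 0.25. In the amino acid and peptide transport list 8 of 18 fell and 3 rose, with aat1 lower by a log2 change of -0.48 and per1 by -0.41.

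The uracil-regulated genes urg1, urg2 and urg3 lie next to each other on chromosome I between 1830609 and 1837060, and all 3 fell. The middle gene urg3 had 204, 171 and 220 CPM in the controls and 73.8, 78.6 and 76.2 CPM after plasma (log2 change -1.38 ± 0.08, adjusted p = 4.55e-09). Its flanking genes fell more, urg1 from 665, 399 and 688 CPM to 54.1, 72.1 and 44.6 CPM and urg2 from 549, 406 and 572 CPM to 75.6, 90.3 and 55.5 CPM. Control b was the lowest control in all 3 genes, towards the plasma side, and plasma library b the highest plasma library. Nucleotide synthesis and salvage genes were lower in 14 of 29 cases and higher in none. The adenine deaminase gene dea2 had 254, 206 and 264 CPM in the controls and 162, 135 and 160 CPM after plasma (log2 change -0.66 ± 0.10), and the uracil synthesis gene ura4 fell by 0.24 ± 0.06.

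Phosphate uptake genes fell as well, and a gene of their control rose. The phosphate transporter gene pho842 (chrI:4362493-4365125) had 70.9, 70.6 and 88.7 CPM in the controls and 31.8, 33.6 and 38.5 CPM after plasma (log2 change -1.14 ± 0.12, adjusted p = 3.32e-06). For pho84 (chrII:4444101-4446200) the values were 28.9, 17.3 and 25.3 CPM and 6.54, 4.48 and 5.95 CPM (-2.07 ± 0.22, adjusted p = 2.6e-06), but the non-coding gene prt2 covers 89% of its span and the counting used no strand. The acid phosphatase gene pho1 was near 2 CPM before and 1 CPM after, with 91.3% of its span shared likewise. The ubiquitin ligase gene pqr1, known for lowering phosphate uptake, had 224, 199 and 217 CPM in the controls and 407, 408 and 367 CPM after plasma (log2 change 0.89 ± 0.06, adjusted p = 3.45e-08). In the phosphate and thiamine list 7 of 19 fell and 5 rose.

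Among iron genes 6 of 23 fell and 3 rose. The siderophore importer gene str3 had 10.3, 12.8 and 11 CPM in the controls and 4.81, 2.71 and 4.39 CPM after plasma (log2 change -1.50 ± 0.20, adjusted p = 2.09e-05), while sib2, which acts in siderophore synthesis, rose from 87.1 ± 6.55 to 192 ± 18 CPM. Of the remaining steep falls outside the stress lists, the hydrolase-like gene fsh2 had 177, 115 and 200 CPM and then 72.6, 67.1 and 70.0 CPM (-1.23 ± 0.13). Its control b lay well below the other controls, and without it the change was -1.44. The glyoxylate reductase gene gor2 went from 112 ± 6.14 to 52.0 ± 1.93 CPM, aes1 from 260 ± 4.74 to 116 ± 13.4 CPM and mmf2 from 45.5 ± 4.72 to 19.2 ± 2.07 CPM. Words for transporters stood in the product names of 30.4% (7) of the 23 coding genes past 2-fold downwards and of 3.91% of all tested, words again chosen after the values were seen.

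Ribosome assembly genes fell broadly but by little. In the ribosome biogenesis list 77 of 107 fell and none rose, with a median log2 change of -0.37. The small subunit factor gene rrp9 had 154, 149 and 162 CPM in the controls and 90.8, 87.3 and 109 CPM after plasma (log2 change -0.70 ± 0.08, adjusted p = 3.6e-06), and rix7, an ATPase gene for large subunit maturation, 98.0, 90.2 and 104 CPM and 62.5, 57.9 and 67.0 CPM (-0.64 ± 0.07). In both genes the lowest control lay above the highest plasma library, as the rule for naming asked. Without control b 83 of the 107 fell.

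Genes of the polymerases that make ribosomal and transfer RNA fell in 11 of 29 cases, and 2 rose. The polymerase III subunit gene rpc34 had 86.9, 81.1 and 89.2 CPM in the controls and 59.8, 50.1 and 62.0 CPM after plasma (log2 change -0.58 ± 0.08), and the largest subunit gene, rpc1, fell by 0.45 ± 0.09. The repressor of that polymerase, maf1, moved the other way, from 26.8, 29.0 and 27.2 CPM to 54.1, 55.2 and 47.7 CPM (0.92 ± 0.09, adjusted p = 1.67e-06). Transfer RNA ligase and modification genes fell in 23 of 35 cases and rose in none, with the wobble base modification genes ctu1 and elp3 lower by log2 changes of -0.80 ± 0.11 and -0.37 ± 0.07. Amino acid synthesis genes fell in 22 of 50 cases and rose in 2. In the fit to the 6 libraries alone, the counts lower were 11 of 35 for the transfer RNA list and 8 of 50 for amino acid synthesis.

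Cytoplasmic ribosomal protein genes did not follow the assembly genes in count, since 3 of 112 fell and none rose, at a median log2 change of -0.21. Control b stood above the mean of controls a and c in 112 of the 112, by a median of 0.30 on the log2 scale. Their number of calls turned on the settings, with 69 lower when libraries were scaled to total counts without TMM, 16 with DESeq2 and 35 without plasma library c. Under none of these did a member rise. The gene rps2202 fell under every alternative tried and had 926, 1025 and 849 CPM in the controls and 553, 575 and 593 CPM after plasma (-0.70 ± 0.06, adjusted p = 6.4e-07). Translation factor genes fell in 9 of 37 cases, in 5 without control b and in 1 with the 6 libraries alone.

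Among the genes eligible for naming, the largest falls in mean CPM were in cell wall genes. The glucan-elongating enzyme gene gas1 (chrI:4878579-4880798) had 2083, 2248 and 2373 CPM in the controls and 1011, 1278 and 1132 CPM after plasma (log2 change -0.97 ± 0.09, adjusted p = 4.61e-07). The wall protein gene psu1 had 1462, 1545 and 1769 CPM and then 737, 895 and 884 CPM (-0.92 ± 0.09, adjusted p = 1.87e-06). No library of the groups overlapped in either gene, as the rule for naming asked. The glucanase gene exg1 fell by 0.55 ± 0.11 and asl1 by 0.69 ± 0.08, while cfh2, a chitin synthase regulator homologue, rose from 76.8 ± 3.20 to 204 ± 13.6 CPM (adjusted p = 6.01e-09). In the whole list 9 of 44 rose and 8 fell, shares close to those of all genes. The gas2 gene rose by 0.85 ± 0.10, but 89% of its span is shared with tri1.

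Cell division genes moved both ways. Of 55 cytokinesis genes 8 rose and 11 fell, and of 63 mitosis genes 13 rose and 14 fell. The shares were 14.5% and 20.6% higher and 20% and 22.2% lower, not far from the 21.9% and 17% of all genes. The gene slp1, among the 14 lowest outside the stress lists, went from 390 ± 25.6 to 190 ± 25.1 CPM. The Aurora kinase gene ark1 had 25, 27.2 and 25.9 CPM in the controls and 13.4, 13.8 and 14.5 CPM after plasma (log2 change -0.91 ± 0.08, adjusted p = 5.74e-07), the septation activator gene etd1 92.7, 110 and 80.9 CPM and 56.8, 62.0 and 50.3 CPM (-0.75 ± 0.09). The contractile ring genes pxl1 and cdc15 fell by 0.70 ± 0.08 and 0.52 ± 0.07. The forkhead gene sep1, a regulator of separation genes, rose from 86.7 ± 10.8 to 142 ± 3.97 CPM. The septin gene spn5, also a meiosis marker, and the cohesin gene psm1 rose as well, by 0.73 ± 0.06 and 0.49 ± 0.06 on the log2 scale. Mating genes rose in 7 of 20 cases and fell in 2, and their sum went from 902 to 1069 CPM in the controls to 1109 to 1177 CPM after plasma, over 25 matched genes of which 3 had no count.

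Of the other stress lists, Pap1-regulated genes rose in 12 of 19 cases with none lower, antioxidant genes rose in 11 and fell in 1 of 25, and stress kinase genes rose in 17 and fell in 2 of 31. Vacuole genes rose in 14 and fell in 4 of 37, RNA decay genes rose in 10 and fell in 15 of 54, and nuclear pore and chromatin genes rose in 6 and fell in 17 of 91. Meiosis genes rose in 2 and fell in 5 of 12, sulfur genes rose in 5 and fell in 4 of 18, and gluconeogenesis genes rose in 5 and fell in 5 of 19. Trehalose and glycerol genes rose in 8 of 10 cases and fell in the other two, zinc genes rose in 3 and fell in 3 of 11, and pentose phosphate genes rose in 3 and fell in 1 of 10. Respiratory chain genes rose in 8 of 53 cases and fell in 3, with ndi1 at 258 ± 19.2 and 410 ± 29.3 CPM and cyc1, cytochrome c, at 685 ± 21.8 and 921 ± 53.0 CPM. Glycolysis genes changed in 2 of 20 cases, 1 each way, and mitochondrial ribosome genes rose in 5 and fell in 5 of 52. Mitochondrial import genes rose in 4 and fell in 5 of 38, among them tim44 and tim22, lower by log2 changes of -0.46 and -0.38. The 11 mitochondrially encoded genes tested gave no call, at a median of -1.11, whereas with library letter as a replicate block 10 of the 11 were lower, and 5 of 24 ribosomal RNA genes against none. The summed share of both classes was higher in library a than in library c, in controls and plasma alike.

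**Figure D4:**
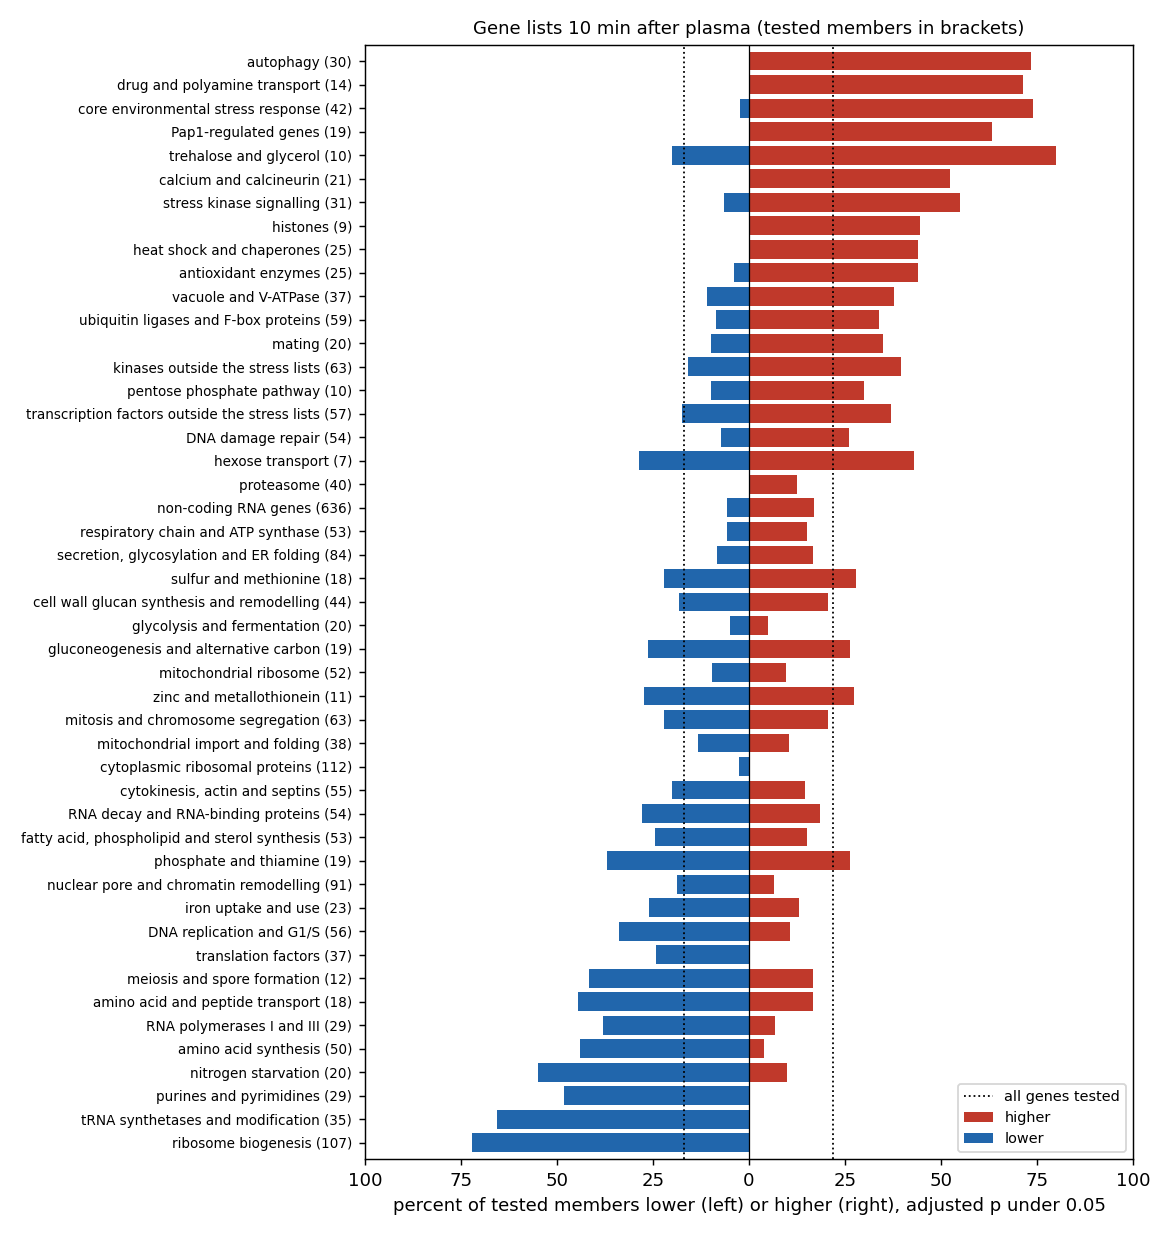
Percent of the tested members of each list that fell (bars to the left) or rose (bars to the right) at an adjusted p under 0.05, with the number tested in brackets and dotted lines at the shares of all genes tested, 17% and 21.9%. Ribosome biogenesis and transfer RNA genes extend furthest to the left with no riser, and autophagy and drug transport genes extend to the right with no faller.

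Non-coding genes rose in 108 of 636 cases and fell in 37, and 57 rose at least 2-fold. The counting took no account of strand, so reads in a stretch shared with another gene cannot be assigned. Of the 159 tested that overlap no listed gene, 27 rose and 9 fell, 15 and 4 of them by at least 2-fold. The 2 named here were picked out after their values were seen. The gene fbp1-ot2 (chrII:201348-201812), which ends before the wwm3 transcript begins, had 0.184, 0.357 and 0.126 CPM in the controls and 2.23, 2.38 and 1.75 CPM after plasma (log2 change 3.18 ± 0.45, adjusted p = 4.11e-05). The gene prl12 had 0.184, 0.255 and 0.188 CPM and then 1.59, 1.66 and 1.89 CPM (3.0 ± 0.38).

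The check against control library b covered every gene. Without it, 1761 of the 2025 calls (87.0%) stood in the same direction, 264 no longer passed and none changed sign, while 120 further genes passed as higher and 177 as lower. Leaving out another library lost from 237 calls (plasma c) to 371 (plasma b), so control b was not the library whose removal cost most. Among the 240 genes past 2-fold upwards, 233 passed without control b and in 233 every plasma library stood above it. It lay at a median of 14.5% of the way from controls a and c to the plasma mean, and at 25% of the way or more in 86 of these genes. Of the 35 past 2-fold downwards, 29 passed without it and all 35 had every plasma library below it.

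Control b stood apart by 2-fold or more in a small number of genes, while smaller shifts were broader. It lay above the mean of controls a and c in 37 of 40 proteasome genes. For ribosome biogenesis genes this held in 12 of 107, and for all genes tested in 2585 of 5214. In 36 genes control b was at least 2-fold above the mean of controls a and c, 23 of them coding with a mean count of 50 or more. Of the 36, 8 stood in the heat shock and chaperone list. For the coding genes with such counts, control a stood 2-fold above the rest in 2 and control c in 1. Of the 23 genes 18 were called higher with all libraries and 22 without control b, a shift that their choice by a high control b favours. The chaperone gene ssa1 had 182, 763 and 168 CPM in the controls and 897, 1630 and 965 CPM after plasma, with a log2 change of 1.65 ± 0.48 (adjusted p = 0.0134) and of 2.72 without control b (adjusted p = 2.73e-05). Its plasma library b was likewise the highest, so library b led in both groups. The fit without control b kept plasma library b, so changes from that fit are not balanced by letter. The gene rtc3 (chrII:3829961-3830902) had 142, 515 and 86.1 CPM and then 2269, 2912 and 2116 CPM, with changes of 3.29 ± 0.48 and, without control b, 4.40.

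The calls of co-chaperone genes differed with and without this library. For fes1, the nucleotide exchange factor of Hsp70, control b at 420 CPM lay within the plasma range of 362 to 427 CPM, above controls a and c at 180 and 149 CPM. The change was 0.63 ± 0.28 (adjusted p = 0.094) with control b and 1.22 (adjusted p = 7.18e-05) without. The co-chaperone genes sti1 and aha1 had adjusted p-values of 0.114 and 0.355 with control b and of 0.000204 and 0.000224 without. With all libraries and the letter block, which treats libraries of 1 letter as matched, fes1 and sti1 passed too (adjusted p = 0.0224 and 0.0296) and aha1 did not. Control b of aha1, at 667 CPM, exceeded all 3 plasma libraries. In the heat shock list 11 of 25 were higher with control b and 19 without, with medians of 0.35 and 0.57, and in the proteasome list 5 of 40 and 18. The heat shock count was 15 with the replicate block by letter and 6 in the fit to the 6 libraries alone, where the proteasome count was 2. It was 5 without control a or plasma b, 6 without control c and 7 without plasma c, and the proteasome count was 2, 2, 3 and 3 in the same settings. Of the 7 genes past 2-fold upwards that no longer passed without it, ctr1 and pfa5 were the coding ones, named after their values were seen.

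**Figure D5:**
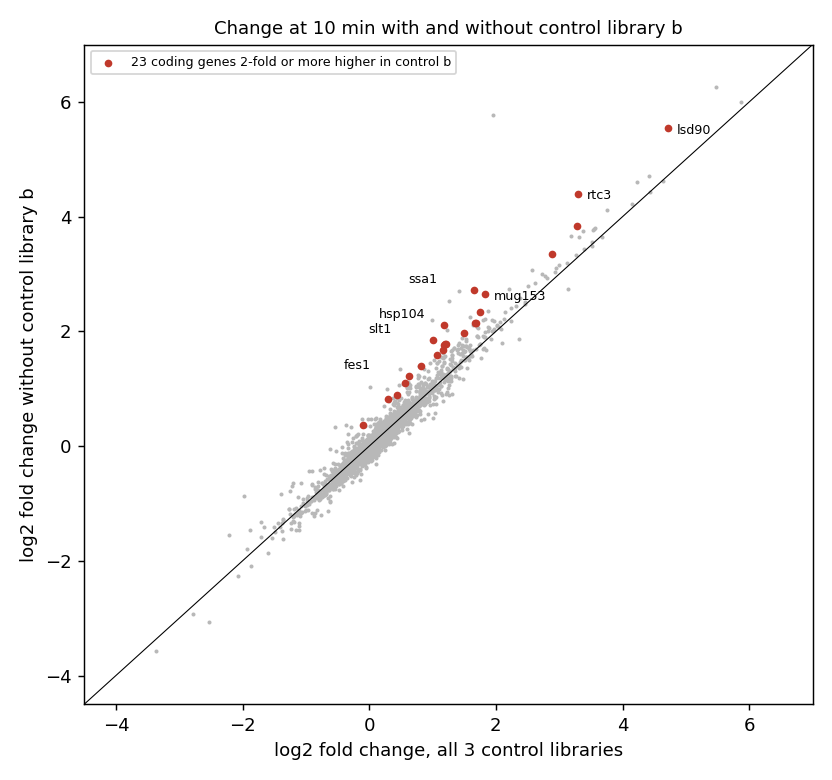
Log2 fold change at 10 min without control library b (y axis) against the change with all 3 control libraries (x axis), 1 point for each gene, with a line where both are equal. The 23 red points, coding genes in which control b stood at least 2-fold above controls a and c, were chosen by that library, so their place above the line follows from the choice; rtc3 stands at 3.29 and 4.40.

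Mean levels at the other times and after H2O2 are set beside those at 10 min, with the controls shared by all and the differences between times not tested here. The fall of amt1 to 44.4 CPM at 10 min was followed by means of 103 CPM at 15 min and 225 CPM at 30 min, against 105 CPM without irradiation and 101 CPM after H2O2. For isp7 the means ran 151, 71.5, 236 and 305 CPM from no irradiation to 30 min, and 282 CPM after H2O2. Of the 5 groups, 10 min had the lowest mean for both genes. The transporter gene SPCC794.04c stood at 78.0, 68.4 and 19.8 CPM at the 3 plasma times and rsv2 at 356, 265 and 155 CPM, highest at 10 min. SPAC637.03 stood at 453, 556 and 773 CPM and gas1 at 1140, 779 and 728 CPM, further from the control mean at each later time. For SPAC32A11.02c the means of 843, 854 and 795 CPM were near level, and 276 CPM after H2O2.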

How the data were processed

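The authors deposited raw read pair counts per gene, made with featureCounts 2.0.1 over transcript features by gene identifier with no strand option, per the file headers. The submitters' processing notes name HISAT2 2.2.1, SAMtools 1.13 and a build (R64) that is one of budding yeast. Coordinates are therefore those of the deposited tables, and a start or end equals RefSeq ASM294v3 in 6834 of the 6852 genes matched. The library kit marks strand, per the labels' protocols. Columns carry letters a to c, which were used as library names.

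Genes were kept with filterByExpr and scaled with TMM, and all 15 libraries were fitted in 1 model with edgeR 4.0.16 in R 4.3.3 (quasi-likelihood F-test, two-sided, Benjamini-Hochberg at 0.05, biological coefficient of variation 8.8%). The p-values measure the spread between these libraries. No library was a copy of another: chi-square statistics between replicates were 18.5 to 78.8 times their degrees of freedom. Same-letter libraries deviated together across both groups (r = 0.31, 0.21 and 0.21 for a, b and c, against -0.23 to -0.03 for different letters). The labels do not say that a letter marks a shared culture or day. The main fit, which gave the p-values above unless said otherwise, therefore left the letters unpaired, and fits with letter as a block were alternatives. Others were RLE size factors, total counts, DESeq2 1.42.0, other filters, the 6 libraries alone, and each library left out.

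Named were eligible coding genes: adjusted p under 0.05, groups that did not overlap, a mean count of 50 or more, and the same call without control b. They were the 14 highest and 14 lowest outside the 9 stress lists, the 6 highest and 4 lowest inside, the 6 largest gains and 6 largest losses in CPM, the 3 smallest p-values per list, the 8 coding genes that moved most without control b, and members set beside these. Of 175 so named, 92 overlap another listed gene, 12 of them over 50% or more. The 47 gene lists came from textbook knowledge, and members and lists were chosen with earlier results of these data known.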

Additional observations from a re-analysis of the deposited data

How the results depend on the processing

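Genes higher at 10 min numbered 890 to 1163 and genes lower 546 to 984 under all alternatives, against 1141 and 884. The fit to the 6 libraries alone gave 890 higher and 546 lower genes, and only 88 of its 1436 calls did not pass without control b, against 264 of 2025 with all 15 libraries. Of its calls 1424 were shared with the fit to all libraries. Leaving out 1 library at a time gave 980 to 1136 higher and 709 to 927 lower genes. With the replicate block by library letter the counts were 1163 and 930, and beside the mitochondrial, ribosomal RNA and heat shock counts given above, the block moved the calls of 3 named genes, with fes1 and sti1 then passing and the septin gene spn7 not. It changed no other call of a named gene. Of the 175 named genes, 157 passed in the same direction under all 15 alternatives, and no change reversed. The other 18 include hsp104, slt1, hsp78, ght5, ecm33 and htb1, of which hsp104 did not pass without control a or c, without plasma b, or in the fit to the 6 libraries. Most named genes had to pass both in the main fit and without control b, with groups that did not overlap. Their stability was thus partly fixed by that rule and does not describe the 2025 calls. Of 94 counts of list members, 37 moved by over 1.5 times with the 6 libraries alone and 23 with total counts without TMM, where 69 ribosomal protein genes fell. The causes were not tested. Low counts limit what could be seen: the smallest mean count asked of a named gene was 50.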
